A study of Mus musculus with 9 samples.

Results

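Solute carriers are membrane proteins that move sugars, amino acids, ions, metals, vitamins and other small solutes across the plasma membrane and the membranes of organelles. Their genes are named Slc, a family number, the letter A and a member number. Members were selected on symbol and measured level, as the rows of the deposited expression table whose symbol field held such a name and that had at least 1 FPKM in at least 3 of the 9 libraries (FPKM, fragments per kilobase of transcript scaled to the mapped fragments of a library). A pair of genes was left out by rule. Of 325 rows with a matching symbol, 163 were members, out of 20523 rows that met the same filter and 84809 rows in all. The members came from 40 families. By name, 157 encode carriers, and 6 are scaffold proteins, pseudogenes or other genes with a carrier-like symbol. The filter used the measured level, so the presence of a member is not a result.

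The libraries came from dermal cells taken directly from newborn mice of the strain Krt14 cre;Rosa26-mTmG, which every group shared. Krt14 is a keratinocyte gene, so its promoter drives Cre in the epidermis, and the mTmG reporter switches its fluorescent protein where Cre has acted. Cells called mesenchymal in the labels were sorted on CD49f, the integrin α6 subunit, into the gates CD49f-high, CD49f-low and CD49f-neg, with 3 libraries each. Whether the replicates are separate animals is not given by the labels, so p-values measure only the spread between these samples, which may be technical. Itga6, which encodes CD49f, followed the gates, at 15.9, 19.7 and 24.1 FPKM in CD49f-high, 6.05, 4.38 and 6.09 FPKM in CD49f-low and 0.710, 0.433 and 0.283 FPKM in CD49f-neg (replicates 1, 2 and 3 in this order, as in every such list below). The depth, roughly estimated from the spacing of low values in single-exon rows (55.05% to 65.75% of them within 0.1 of a whole step), was about 23700000 to 27300000 fragments per library, and members held 0.155% to 0.230% of the summed FPKM of the tested rows.

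A cell's set of carriers follows its metabolism. Carriers of the plasma membrane bring in glucose and amino acids and take out lactate, exchangers that run on the sodium gradient set calcium, chloride and pH, and the Slc25 family joins the matrix of mitochondria to the cytosol. In skin, carriers are best known for taking up amino acids in dividing cells, sulfate and zinc for the making of matrix, and fatty acids in fat cells.

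Marker genes of several cell types differed between the gates. Summed over 10 pericyte and smooth muscle markers, the level was 786 to 1431 FPKM in CD49f-high, 84.1 to 160.5 FPKM in CD49f-low and 24.8 to 37.4 FPKM in CD49f-neg, and 10 of 10 tested were called higher in CD49f-high than CD49f-neg. Melanocyte markers summed to 32.9 to 75.7 FPKM, 468 to 574 FPKM and 6.20 to 6.36 FPKM in the same order of gates, and 10 of 10 were called higher in CD49f-low than in CD49f-neg. Dermal papilla markers summed to 21.1 to 34.4 FPKM in CD49f-high, 134.5 to 159.8 FPKM in CD49f-low and 37.3 to 42.3 FPKM in CD49f-neg (8 of 10 called higher in CD49f-low than in CD49f-neg). Between CD49f-high and CD49f-neg, most of these markers went against the order of the sums. In CD49f-high, 6 of the 10 were called higher than in CD49f-neg and 3 lower, with a median of 0.97 log2 units. Keratinocyte markers summed to 25.1 to 55.8 FPKM in CD49f-high, 10.3 to 18.9 FPKM in CD49f-low and 3.60 to 4.45 FPKM in CD49f-neg, with 9 of 9 tested called higher in CD49f-high and 7 in CD49f-low, both against CD49f-neg. Skeletal muscle markers summed to 31.5 to 63.7 FPKM, 20.9 to 34.4 FPKM and 1.83 to 3.01 FPKM in the same order, with 3 and 5 of 6 tested called higher. Most of them went against the order of the sums between the CD49f-positive gates. In CD49f-high against CD49f-low, 4 of the 6 were called lower and 1 higher, with a median of -1.25 log2 units. Des is on both this list and the pericyte and smooth muscle list. The myofibre genes Ttn and Myl1 were under 1 FPKM in every library. Schwann cell markers summed to 44.01 to 236 FPKM in CD49f-high, 42.2 to 53.97 FPKM in CD49f-low and 1.62 to 2.22 FPKM in CD49f-neg, with 9 and 5 of 9 tested called higher. Sox10 is on both the Schwann cell list and the melanocyte list. Fibroblast markers were present in every gate, at 4160 to 6214 FPKM, 5730 to 6971 FPKM and 14140 to 17210 FPKM, with 9 of 10 called lower in CD49f-high than in CD49f-neg. Fewer cells of a type and less RNA per cell cannot be told apart in bulk libraries. The part of these cell types in the differences of the solute carriers was not tested, unless a value is given beside the result.

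One library stood apart in its adipocyte markers. CD49f-high replicate 1 held 431 FPKM of 8 adipocyte markers, against 40.5 and 31.2 FPKM in CD49f-high replicates 2 and 3, 43.96 to 55.9 FPKM in CD49f-low and 13.5 to 31.5 FPKM in CD49f-neg. Adipoq, the fat cell hormone adiponectin, was at 131.9 FPKM in it and at 0.0623 to 6.59 FPKM in the others. The Schwann cell markers ran the other way within the gate, at 44.01 FPKM in replicate 1 and at 198 and 236 FPKM in replicates 2 and 3. This library was the highest of all 9 for 35 members and the lowest for 33, and values without it are given beside several of the results it moved. CD49f-neg replicate 3 was the lowest for 45 members and had the lowest summed member level, 817 FPKM. How many of all rows were lowest in it was not computed. Its 10 highest rows held 61.3% of its summed FPKM, beside 47.5% to 58.3% in the other libraries. Erythroid cell markers summed to 473 FPKM in it, beside 34.8 to 293 FPKM in the others, and the part of either in the low member values was not tested. Without CD49f-neg replicate 3, higher calls in CD49f-high against CD49f-neg went from 36 to 25 members, beside 2844 to 1910 of all rows. In CD49f-low against CD49f-neg they went from 21 to 15, beside 2623 to 1254 of all rows.

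**Figure D1:**
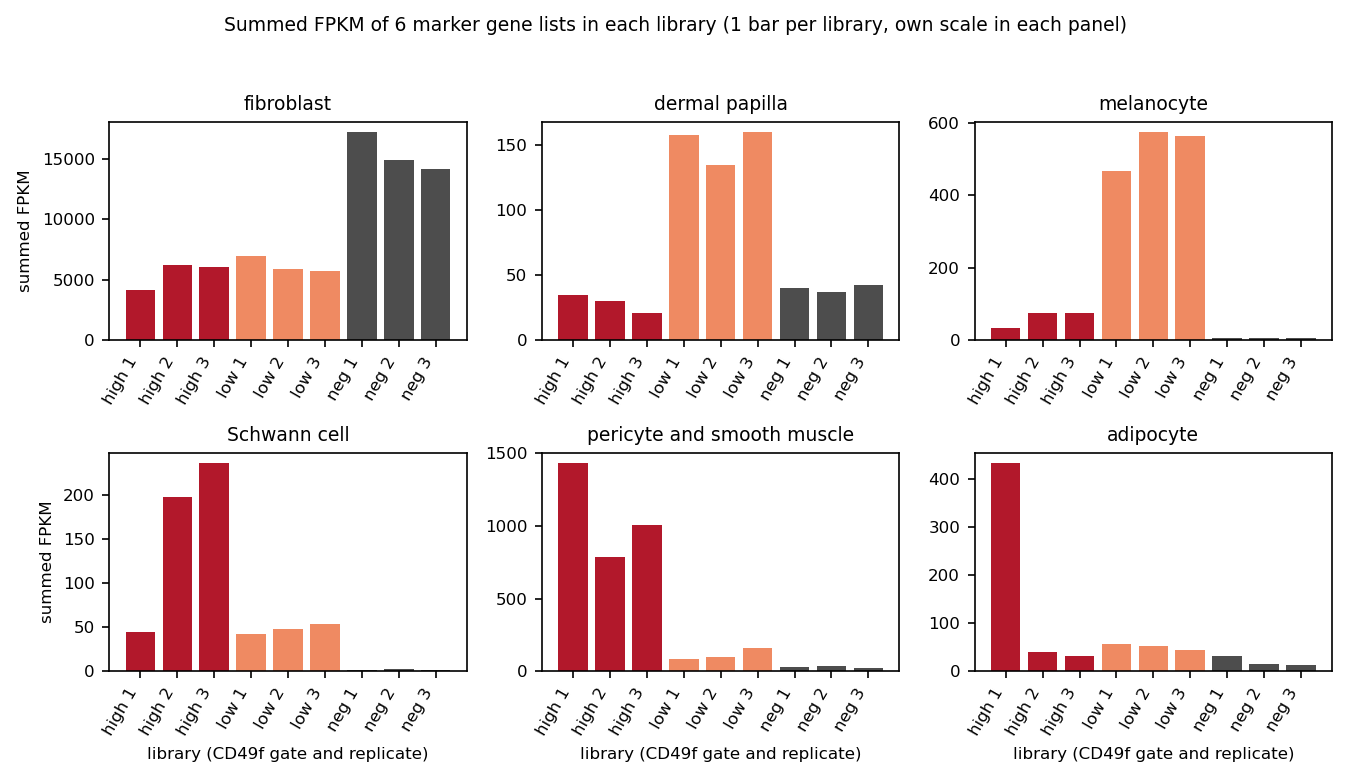
Summed FPKM of 6 marker gene lists (y axis, linear, own scale in each panel) in each library (x axis, CD49f-high, CD49f-low and CD49f-neg, replicates 1 to 3). The adipocyte bar of CD49f-high replicate 1, at 431 FPKM, stands above all others, and the melanocyte and dermal papilla bars are highest in the 3 CD49f-low libraries.

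Members ranged in mean level from 0.739 to 61.7 FPKM over the 9 libraries, with a median of 3.66 FPKM. A mean of 10 or more FPKM was reached by 18, and 35 stayed under 2 FPKM. The most abundant were the mitochondrial ADP/ATP carriers Slc25a4 and Slc25a5, the amino acid carrier Slc38a2 and the zinc carrier Slc39a1. By gate mean, 55 members were highest in CD49f-high, 73 in CD49f-low and 35 in CD49f-neg. No such count was made over all rows, so these numbers are a description. In the deposited FPKM, all rows leaned towards CD49f-low as well. Their median difference was 0.21 log2 units in CD49f-low against CD49f-neg and -0.15 in CD49f-high against CD49f-low. Levels are deposited FPKM. Differences are of log2(FPKM + 1) values, a scale that makes the change of low genes look smaller, and a member was called at an adjusted p under 0.05 over all 20523 rows.

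In CD49f-high against CD49f-neg, 36 members were called higher (22.1% of 163, beside 13.9% of all rows tested) and 14 lower (8.59%, beside 8.27%). In CD49f-low against CD49f-neg, 21 were called higher (12.9%, beside 12.8%) and 1 lower (0.613%, beside 2.62%). In CD49f-high against CD49f-low, 16 were called higher (9.82%, beside 5.93%) and 16 lower (9.82%, beside 10.5%). The share called higher in CD49f-low against CD49f-neg, and the shares called lower in both contrasts of CD49f-high, lay near those of all rows. Median member differences were 0.07, 0.17 and -0.10 log2 units in the same order of contrasts, beside 0.07, 0.21 and -0.15 over all rows. The gates did not overlap for 75, 78 and 75 members, beside 36.4%, 40.5% and 37.2% of all rows. The contrasts share libraries and are not independent. Over 163 members, 101 were called in no contrast.

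Scaling mattered for the contrasts with CD49f-low. Median-of-ratios scaling took the median of all rows from 0.21 to 0.01 log2 units in CD49f-low against CD49f-neg, and from -0.15 to -0.01 in CD49f-high against CD49f-low. With it, 11 members were called higher and 18 lower in CD49f-low against CD49f-neg, beside 1117 and 1093 of the 20523 rows. In CD49f-high against CD49f-low, 25 were called higher and 12 lower, beside 1614 and 1331 rows. Quantile normalization gave 12 higher and 15 lower, beside 1040 and 1004 rows, and 23 higher and 14 lower, beside 1577 and 1431 rows. Without rescaling, the share of members called lower in CD49f-low against CD49f-neg was under that of all rows. With either rescaling it was above. No called member turned its sign under either scaling. Libraries with the same replicate number deviated together, and each call, SE and p comes from the fit without that number as a block unless the block is named. With the block, all the calls above were kept and the counts grew to 36 higher and 10 lower in CD49f-low against CD49f-neg, 45 and 23 in CD49f-high against CD49f-neg, and 24 and 30 in CD49f-high against CD49f-low. The counts over all 20523 rows grew as well, to 4916 and 890, 4037 and 2371, and 1657 and 3652 in the same order. Counts with the block given below for a class or list are to be read beside these.

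**Figure D2:**
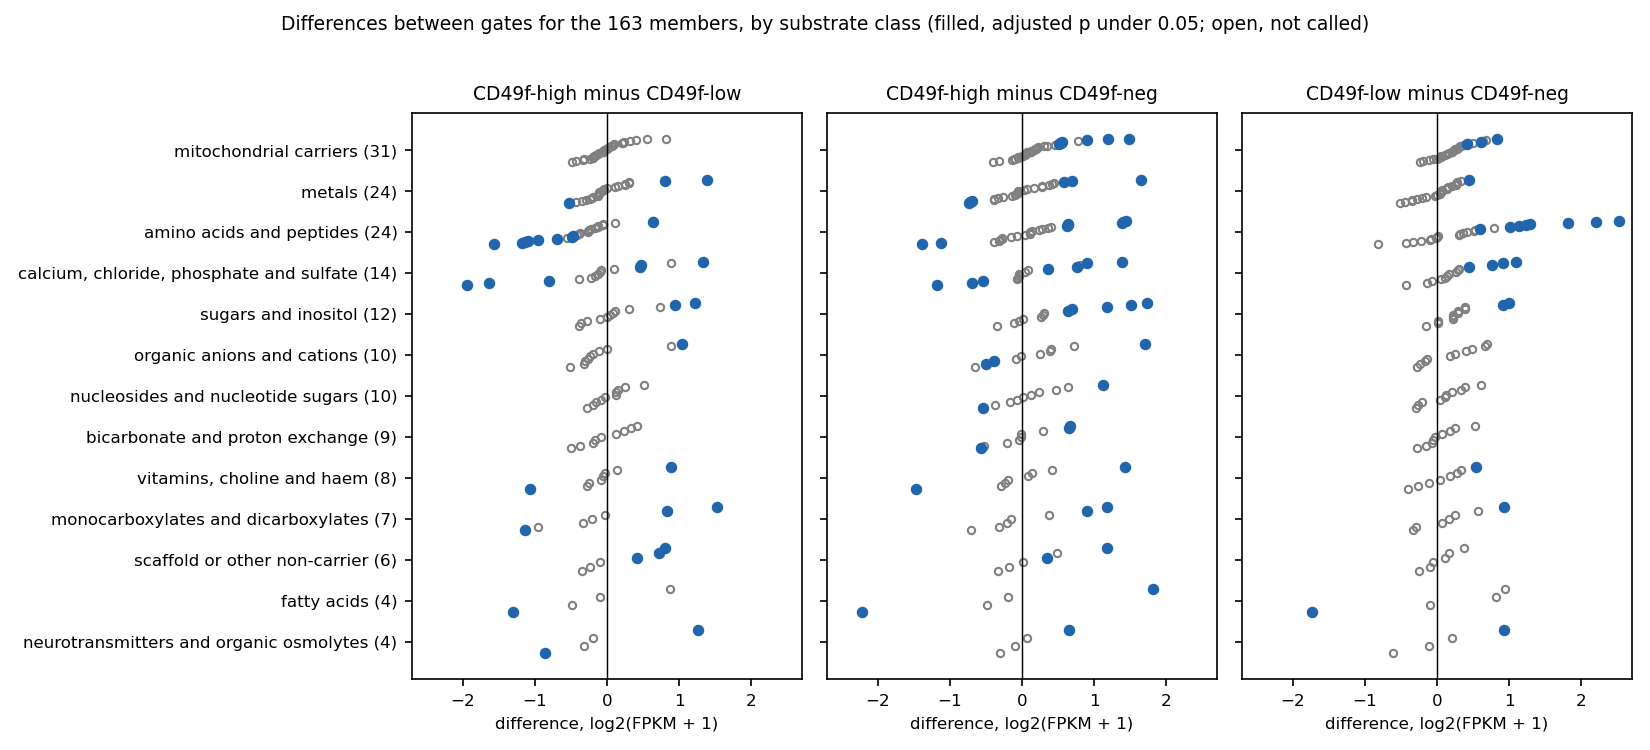
Difference in log2(FPKM + 1) (x axis) of every member in 3 contrasts (panels), by substrate class (y axis, number of members in brackets). Filled points were called at an adjusted p under 0.05 and open points were not. Amino acid carriers hold 8 of the 21 higher calls of CD49f-low against CD49f-neg and 8 of the 16 lower calls of CD49f-high against CD49f-low. Slc38a1, Slc6a15 and Slc1a1, which passed the filter through CD49f-low alone, are in both counts of 8, so the rule itself added to them.

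At the edge of the rule, 8 members had 1 FPKM or more in exactly 3 libraries, and 4 rows had it in 2 and stayed out. For 6 members the 3 libraries were those of 1 gate, so the rule itself made them differ and their values are given with no test. In CD49f-high these were Slc8a2, a sodium-calcium exchanger (1.74, 1.40 and 1.33 FPKM), Slc11a1, an iron and manganese carrier (2.83, 1.89 and 1.95 FPKM), and Slc2a3, a glucose carrier (3.33, 1.46 and 2.01 FPKM). In CD49f-low they were the glutamate and cysteine carrier Slc1a1 (1.09, 2.08 and 1.94 FPKM), the neutral amino acid carrier Slc6a15 (1.72, 1.78 and 1.67 FPKM) and the glutamine carrier Slc38a1 (3.49, 4.56 and 4.46 FPKM). Just outside, Slc17a9, which fills vesicles with nucleotides, had 0.172, 0.231 and 0.131 FPKM in CD49f-high, 0.304, 0.444 and 0.491 FPKM in CD49f-low and 0.736, 1.75 and 1.19 FPKM in CD49f-neg. A further 149 rows reached 1 FPKM in no library. Of the members, 127 had 1 FPKM or more in all 9 libraries, of which 25 were called higher (19.7%, beside 13.9% of all rows) and 8 lower (6.30%, beside 8.27%) in CD49f-high against CD49f-neg. In CD49f-low against CD49f-neg, 11 of the 127 were called higher (8.66%, beside 12.8%) and 1 lower (0.787%, beside 2.62%), and in CD49f-high against CD49f-low 8 higher (6.30%, beside 5.93%) and 9 lower (7.09%, beside 10.5%). The shares of the 127 in these contrasts with CD49f-low were near or under those of all rows. The sets are unlike, since all rows include those with 1 FPKM in only some libraries, which the 127 leave out. No share was computed over all rows that reached it in all 9.

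Called against both other gates, 10 members were highest in CD49f-low and 14 in CD49f-high. Each set holds 3 of the members that the rule made differ, so its size is a description. The share of all rows with such a pattern of calls was not computed, here or for the patterns below. RefSeq (GRCm38.p6) gave a promoter for 4 of the 10, Slc1a1 among them, and for 10 of the 14, Slc8a2 and Slc11a1 among them. Given here are the 3 of these promoters that hold the letters CACGTG, an E-box, and then the 3 that do not hold them and end exactly where the deposited row starts. Slc24a4 and Slc7a8 were highest in CD49f-low and the other 4 in CD49f-high. Each line gives the 250 bases before the annotated start, 5′ to 3′ on the gene's strand, and capitals mark CACGTG. The windows of the first 3 are chr12:102128477-102128726 (plus strand), chr13:73763447-73763696 (plus) and chr19:34747329-34747578 (minus), and those of the last 3 are chr14:54781887-54782136 (minus), chr9:21337578-21337827 (plus) and chr11:115163091-115163340 (plus).
Slc24a4: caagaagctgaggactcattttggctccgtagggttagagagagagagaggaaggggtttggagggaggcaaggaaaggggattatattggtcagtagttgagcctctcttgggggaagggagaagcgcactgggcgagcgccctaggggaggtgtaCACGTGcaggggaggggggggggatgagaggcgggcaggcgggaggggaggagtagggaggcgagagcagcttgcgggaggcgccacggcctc
Slc12a7: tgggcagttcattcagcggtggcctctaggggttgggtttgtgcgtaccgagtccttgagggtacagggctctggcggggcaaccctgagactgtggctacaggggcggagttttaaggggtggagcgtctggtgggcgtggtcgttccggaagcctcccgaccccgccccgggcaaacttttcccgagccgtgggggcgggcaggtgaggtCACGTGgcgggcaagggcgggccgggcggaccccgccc
Slc16a12: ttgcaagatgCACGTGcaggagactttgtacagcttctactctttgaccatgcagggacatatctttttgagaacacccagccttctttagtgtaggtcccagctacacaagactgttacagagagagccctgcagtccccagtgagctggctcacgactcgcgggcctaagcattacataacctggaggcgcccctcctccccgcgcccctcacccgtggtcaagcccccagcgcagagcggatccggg
Slc7a8: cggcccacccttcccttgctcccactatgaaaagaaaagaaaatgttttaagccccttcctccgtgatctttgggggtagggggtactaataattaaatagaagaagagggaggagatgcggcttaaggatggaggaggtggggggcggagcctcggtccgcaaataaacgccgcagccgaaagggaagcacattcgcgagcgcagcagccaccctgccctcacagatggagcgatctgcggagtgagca
Slc44a2: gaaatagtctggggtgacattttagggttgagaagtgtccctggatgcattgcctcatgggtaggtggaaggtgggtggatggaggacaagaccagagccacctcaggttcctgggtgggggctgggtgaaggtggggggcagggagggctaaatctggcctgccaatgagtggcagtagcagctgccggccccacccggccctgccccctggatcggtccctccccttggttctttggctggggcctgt
Slc9a3r1: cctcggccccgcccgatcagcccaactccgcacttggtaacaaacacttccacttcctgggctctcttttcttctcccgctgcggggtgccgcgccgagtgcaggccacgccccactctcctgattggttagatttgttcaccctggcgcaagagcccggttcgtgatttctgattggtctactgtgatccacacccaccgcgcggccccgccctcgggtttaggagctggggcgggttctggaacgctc
Searched on both strands in the 250 bases before the start, CACGTG was in 2 of 14 promoters of members highest in CD49f-high and in 1 of 4 of those highest in CD49f-low, beside 6.02% of 32851 promoters in all. CATGTG, the core of a motif of pigment cell promoters, was in 1 of the 14 and 0 of the 4, beside 12.3%. The amino acid response letters TGATGNAA were in none of them, beside 3.45%, and neither was the CArG box, known from smooth muscle genes, beside 1.47%. A match describes letters only.

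Among the 24 carriers of amino acids and peptides, 8 were called higher in CD49f-low than in CD49f-neg (33.3%, beside 12.8% of all rows), none lower, and 8 were called lower in CD49f-high than in CD49f-low (33.3%, beside 10.5%), 1 higher. With the block, 2 were also called lower in CD49f-low against CD49f-neg. Both counts hold Slc38a1, Slc6a15 and Slc1a1, which the rule made differ. The median difference of the class, with these members in it, was 0.39 log2 units in CD49f-low against CD49f-neg, beside 0.21 over all rows. In CD49f-high against CD49f-low it was -0.32, beside -0.15. Large neutral amino acids such as leucine enter cells through a light chain, Slc7a5 or Slc7a8, that needs the heavy chain Slc3a2 to reach the surface. All 3 genes were called higher in CD49f-low than in CD49f-neg. Slc7a8 (row MERGE.13929, chromosome 14, 54722216 to 54781886) stood at 4.17, 2.76 and 1.66 FPKM in CD49f-high, 7.94, 7.58 and 6.23 FPKM in CD49f-low and 0.478, 0.396 and 0.414 FPKM in CD49f-neg. The 3 gates did not overlap. Slc7a8 was higher in CD49f-low than in CD49f-neg by 2.52 log2 units (SE 0.21, limma adjusted p = 7.04e-05), higher in CD49f-high than CD49f-neg by 1.38 (adjusted p = 0.00133), and lower in CD49f-high than in CD49f-low, at -1.14 (adjusted p = 0.00562).

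The other light chain, Slc7a5 (row MERGE.46465, chromosome 8, 121881150 to 121907694), had 3.05, 4.73 and 2.55 FPKM in CD49f-high, 7.7, 10.4 and 8.65 FPKM in CD49f-low and 3.25, 3.88 and 2.12 FPKM in CD49f-neg. CD49f-low lay above both other gates, which overlapped. Its difference was 1.29 log2 units (SE 0.22, limma adjusted p = 0.00388) in CD49f-low against CD49f-neg and -1.18 (adjusted p = 0.00519) in CD49f-high against CD49f-low. The heavy chain Slc3a2 (row MERGE.22766, chromosome 19, 8706882 to 8723369) had 18, 14.2 and 13.7 FPKM in CD49f-high, 20.3, 20.7 and 19.3 FPKM in CD49f-low and 13.3, 8.48 and 7.61 FPKM in CD49f-neg. It was higher in CD49f-low than in CD49f-neg by 1.00 log2 units (SE 0.18, limma adjusted p = 0.00657). Its call in CD49f-high against CD49f-neg (0.62, adjusted p = 0.0375) ended without each single library other than CD49f-neg replicate 1 (adjusted p = 0.0519 to 0.136), and the heavy chain was at least as abundant as both light chains together in every library.

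The sodium-coupled glutamine carrier Slc38a1 (row MERGE.16498, chromosome 15, 96571418 to 96642913), one of the members that passed through CD49f-low alone, had 0.611, 0.772 and 0.855 FPKM in CD49f-high, 3.49, 4.56 and 4.46 FPKM in CD49f-low and 0.16, 0.125 and 0.0826 FPKM in CD49f-neg. Its close relative Slc38a2, which cells raise when amino acids run short, was the most abundant amino acid carrier, at 46.9, 42.3 and 41.8 FPKM in CD49f-high, 66.6, 55.9 and 50.1 FPKM in CD49f-low and 58.5, 45.5 and 36.3 FPKM in CD49f-neg. It was called in no contrast without the block, and with it in CD49f-high against CD49f-low (-0.38, adjusted p = 0.0385, beside 0.172). Slc15a2, which takes up dipeptides and tripeptides, had 5.01, 2.7 and 4.08 FPKM in CD49f-high, 5.8, 5.02 and 5.49 FPKM in CD49f-low and 1.33, 0.717 and 0.529 FPKM in CD49f-neg. Both CD49f-positive gates lay above CD49f-neg. The differences of Slc15a2 were 1.40 log2 units (SE 0.20, limma adjusted p = 0.000967) in CD49f-high and 1.81 (adjusted p = 0.000395) in CD49f-low.

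The neutral amino acid exchangers Slc1a5 and Slc1a4 moved in opposite directions in CD49f-high against CD49f-neg. Slc1a5, the main glutamine exchanger of dividing cells, had 25.6, 13.7 and 10.02 FPKM in CD49f-high, 8.41, 11.6 and 8.6 FPKM in CD49f-low and 4.8, 6.79 and 3.84 FPKM in CD49f-neg. It was higher in CD49f-high than CD49f-neg by 1.43 log2 units (SE 0.30, limma adjusted p = 0.00768). Without CD49f-high replicate 1, its highest library, the difference was 1.08 (adjusted p = 0.0114), and CD49f-low against CD49f-neg was then also called, at 0.79 (adjusted p = 0.0312), beside an adjusted p of 0.104 with it. Slc1a4, which carries alanine and serine, had 3.79, 4.63 and 3.12 FPKM in CD49f-high, 8.02, 6.23 and 6.2 FPKM in CD49f-low and 10.1, 10.004 and 8.47 FPKM in CD49f-neg. No CD49f-high library reached the lowest one of the other gates, and Slc1a4 fell in CD49f-high by 1.12 log2 units against CD49f-neg (SE 0.15, limma adjusted p = 0.000528) and by 0.69 against CD49f-low (adjusted p = 0.011).

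Further calls of the class were Slc7a10, a carrier of small neutral amino acids, lower in CD49f-high than in CD49f-neg (-1.38, adjusted p = 0.00406), and the proline and tryptophan carrier Slc36a4, lower in CD49f-high than in CD49f-low (-0.48, adjusted p = 0.00768, and 0.0652 with median-of-ratios scaling). The arginine carrier Slc7a2, at 7.38, 4.83 and 5.17 FPKM in CD49f-high, 3.66, 2.69 and 3.73 FPKM in CD49f-low and 3.01, 3.3 and 3.65 FPKM in CD49f-neg, was the only member of the class called higher in CD49f-high than in CD49f-low (0.63, adjusted p = 0.0266). That call ended without CD49f-high replicate 1 (adjusted p = 0.0597) and without CD49f-low replicates 1, 2 or 3 (0.0505, 0.0951 and 0.0522). The lysosomal carrier Slc15a4 was called higher in CD49f-low than in CD49f-neg (0.59, adjusted p = 0.0215), which ended without CD49f-low replicate 2 (0.0816), without CD49f-neg replicate 3 (0.0856) and with median-of-ratios scaling (0.13).

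**Figure D3:**
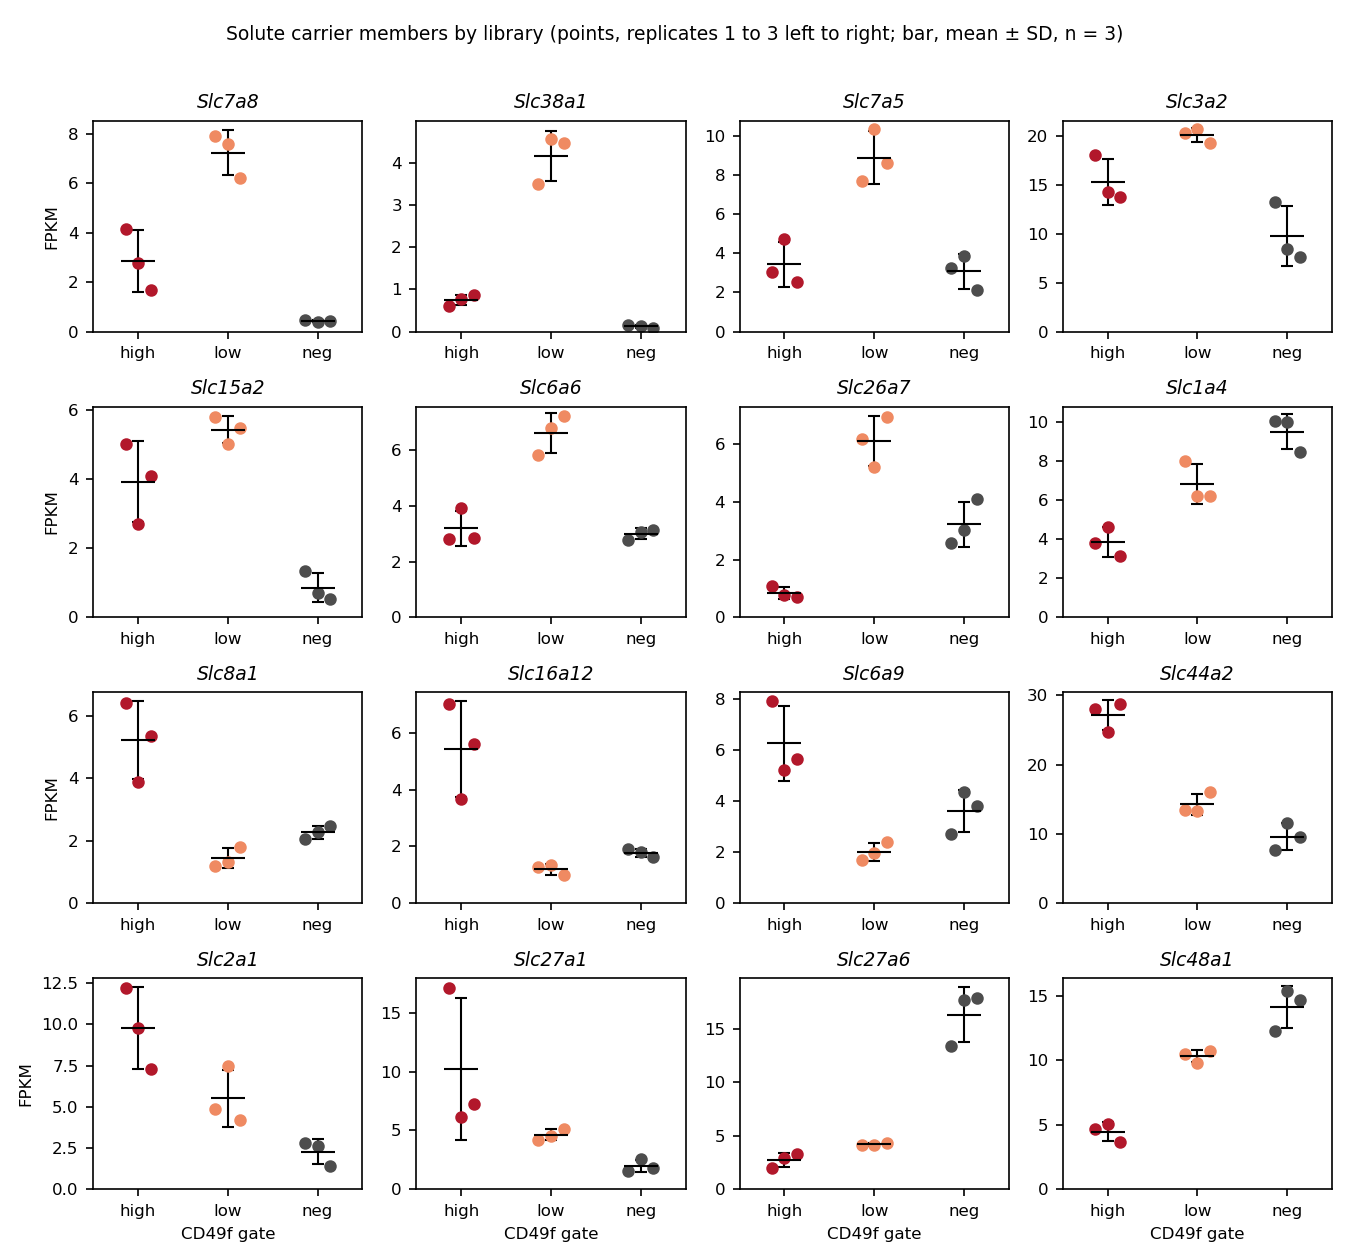
FPKM (y axis, linear from 0, own scale in each panel) of 16 members in each library, by CD49f gate (x axis). Points are libraries, replicates 1 to 3 from left to right, and bars give mean ± SD (n = 3). Slc7a8, Slc38a1, Slc7a5 and Slc6a6 are highest in the 3 CD49f-low libraries, Slc8a1, Slc16a12 and Slc6a9 in the 3 CD49f-high libraries, and Slc27a6 in the 3 CD49f-neg libraries.

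Sugar and inositol carriers were called higher in CD49f-high than CD49f-neg for 5 of 12 members (41.7%, beside 13.9% of all rows), Slc2a3 among them, and lower for none (beside 8.27%). Slc2a1, the basal glucose carrier GLUT1 (row MERGE.32774, chromosome 4, 119108711 to 119137983), had 12.2, 9.81 and 7.28 FPKM in CD49f-high, 4.87, 7.47 and 4.19 FPKM in CD49f-low and 2.81, 2.59 and 1.38 FPKM in CD49f-neg. CD49f-high lay above CD49f-neg in every library and overlapped CD49f-low. In CD49f-high against CD49f-low, Slc2a1 differed by 0.73 log2 units, which was not called without the block or rescaling. That contrast was called with the block (limma adjusted p = 0.0128), with median-of-ratios scaling (0.0332) and with quantile normalization (0.0406). The difference of Slc2a1 was 1.73 log2 units (SE 0.25, limma adjusted p = 0.000941) in CD49f-high and 1.00 (adjusted p = 0.0278) in CD49f-low, both against CD49f-neg. The call in CD49f-low ended with median-of-ratios scaling (0.069), without CD49f-low replicate 1 or 2 (0.0545 and 0.0945) and without CD49f-neg replicate 2 or 3 (0.0519 and 0.0955). Slc2a1 made up 39.2% ± 5.68 of the summed FPKM of the 6 Slc2 members in CD49f-high, 29.8% ± 7.01 in CD49f-low and 18.2% ± 6.35 in CD49f-neg (SD, n = 3 each).

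Slc2a4, the insulin-responsive carrier GLUT4, had 6.98, 2.95 and 4.06 FPKM in CD49f-high, 2.15, 1.65 and 1.67 FPKM in CD49f-low and 1.27, 1.71 and 1.26 FPKM in CD49f-neg. CD49f-high replicate 1, the library with adipocyte markers, was the highest. The difference was 1.17 log2 units (SE 0.23, limma adjusted p = 0.00506) against CD49f-neg and 0.95 (adjusted p = 0.020) against CD49f-low, and without that library 0.89 (adjusted p = 0.00541) and 0.67 (adjusted p = 0.0265). The second call ended without CD49f-low replicate 2 or 3 (0.066 and 0.0715). Slc2a3, at 0.341, 0.347 and 0.420 FPKM in CD49f-low and 0.118, 0.132 and 0.102 FPKM in CD49f-neg, was under 1 FPKM outside CD49f-high. Slc37a4, which brings glucose 6-phosphate into the endoplasmic reticulum, was higher in CD49f-high than CD49f-neg by 0.69 log2 units (SE 0.14, limma adjusted p = 0.00588), at 2.85, 2.92 and 3.13 FPKM in CD49f-high, 2.05, 2.46 and 2.13 FPKM in CD49f-low and 1.13, 1.96 and 1.36 FPKM in CD49f-neg. The row of the inositol carrier Slc5a3 also covers Mrps6, so which gene it measured is uncertain. Its differences were 0.63 in CD49f-high (adjusted p = 0.0355) and 0.91 in CD49f-low (adjusted p = 0.011), both against CD49f-neg, of which the first ended without each single library other than CD49f-neg replicate 1 (adjusted p = 0.0511 to 0.128) and the second with median-of-ratios scaling (0.0564).

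Among 7 carriers of monocarboxylates and dicarboxylates, 2 were called higher and none lower in CD49f-high than in CD49f-neg, 2 higher and 1 lower in CD49f-high than in CD49f-low, and 1 higher in CD49f-low than in CD49f-neg. All rows were called higher at 13.9%, 5.93% and 12.8% in these contrasts, and with a class of 7 each call is 14.3%. Slc16a12, a creatine carrier (row MERGE.23276, chromosome 19, 34668403 to 34747289), had 7.03, 3.68 and 5.59 FPKM in CD49f-high, 1.27, 1.34 and 0.986 FPKM in CD49f-low and 1.92, 1.79 and 1.63 FPKM in CD49f-neg. The highest library outside CD49f-high stood below the lowest inside it, and the differences were 1.18 log2 units (SE 0.18, limma adjusted p = 0.00145) against CD49f-neg and 1.52 (adjusted p = 0.000512) against CD49f-low.

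Slc16a3, the lactate exporter of glycolytic cells, had 4.47, 1.71 and 2.61 FPKM in CD49f-high, 0.939, 1.11 and 1.32 FPKM in CD49f-low and 1.15, 1.03 and 0.895 FPKM in CD49f-neg. It was higher in CD49f-high by 0.90 log2 units (SE 0.22, limma adjusted p = 0.0174) against CD49f-neg and by 0.83 (adjusted p = 0.0317) against CD49f-low, and by 0.63 (adjusted p = 0.0262) and 0.56 (adjusted p = 0.048) without CD49f-high replicate 1. The call against CD49f-neg ended without CD49f-neg replicate 2 or 3 (0.0519 and 0.063). The call against CD49f-low ended without CD49f-high replicate 3 (0.0727), CD49f-low replicates 1, 2 or 3 (0.0987, 0.0823 and 0.065) or CD49f-neg replicate 2 (0.0517). Slc16a1, the widespread lactate and pyruvate carrier, was at 6.79, 5.39 and 5.74 FPKM in CD49f-high, 7.27, 7.2 and 6.51 FPKM in CD49f-low and 6.23, 4.35 and 3.03 FPKM in CD49f-neg. It was called in no contrast without the block, and with it in CD49f-low against CD49f-neg (adjusted p = 0.027, beside 0.0736). Without CD49f-neg replicate 1, both CD49f-positive gates were called higher than CD49f-neg (0.026 in CD49f-high and 0.0124 in CD49f-low). Bsg, the chaperone that brings Slc16a1 and Slc16a3 to the surface, was called in no contrast, with or without the block, at 74.5 ± 11.8 FPKM in CD49f-high, 77.6 ± 5.16 FPKM in CD49f-low and 81.1 ± 10.5 FPKM in CD49f-neg. Emb, the related chaperone of another monocarboxylate carrier, stood at 13.5, 8.16 and 9.38 FPKM in CD49f-high, 1.15, 1.26 and 1.58 FPKM in CD49f-low and 0.632, 0.734 and 0.559 FPKM in CD49f-neg and was higher in CD49f-high than CD49f-neg by 2.76 log2 units (SE 0.17, limma adjusted p = 7.10e-06).

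Of the 31 mitochondrial carriers, 7 were called higher in CD49f-high than CD49f-neg (22.6%, beside 13.9% of all rows) and 3 in CD49f-low than in CD49f-neg (9.68%, beside 12.8%), none lower, and none was called between CD49f-high and CD49f-low by limma (6 at an unadjusted p under 0.05). With the block, 7 were called higher in CD49f-low than in CD49f-neg, 1 lower in CD49f-high than in CD49f-neg, and 2 higher and 3 lower in CD49f-high than in CD49f-low. Slc25a4, an ADP/ATP exchanger (row MERGE.44103, chromosome 8, 46206797 to 46211284), was the most abundant member of all and overlapped between all gates, at 64.3, 58.1 and 60.7 FPKM in CD49f-high, 59.6, 63.1 and 66.8 FPKM in CD49f-low and 57.5, 63.5 and 62.1 FPKM in CD49f-neg. Its paralog Slc25a5 had 82.1, 49.2 and 36.7 FPKM in CD49f-high, 49.998, 59.6 and 56.8 FPKM in CD49f-low and 28, 36.4 and 28.3 FPKM in CD49f-neg, and was not called (adjusted p = 0.0552 in CD49f-high and 0.0528 in CD49f-low, each against CD49f-neg). The second contrast was called without CD49f-high replicate 1, at 0.83 (adjusted p = 0.00728), and with the block (adjusted p = 0.0425). The share of Slc25a4 in the sum of both was 53.5% ± 9.21 in CD49f-high, 53.3% ± 1.62 in CD49f-low and 66.5% ± 2.69 in CD49f-neg (SD, n = 3 each). The CD49f-high shares, 43.9%, 54.2% and 62.3%, spread most, and none reached the lowest of CD49f-neg, 63.5%.

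Slc25a25, a calcium-regulated ATP-magnesium and phosphate carrier, had the largest difference of the family, 1.49 log2 units (SE 0.24, limma adjusted p = 0.00198) in CD49f-high against CD49f-neg. Its levels were 15.9, 9.97 and 14 FPKM in CD49f-high, 8.54, 5.99 and 6.72 FPKM in CD49f-low and 6.21, 3.49 and 2.91 FPKM in CD49f-neg. CD49f-high lay above the other gates, and CD49f-low against CD49f-neg was not called without the block (adjusted p = 0.0909). With the block it was (adjusted p = 0.0156), and so was CD49f-high against CD49f-low (adjusted p = 0.00692, beside 0.0512). Slc25a3, the phosphate carrier that feeds ATP synthesis, was higher in CD49f-high than CD49f-neg by 0.55 log2 units (SE 0.12, limma adjusted p = 0.0101), at 22.7 ± 2.34 FPKM in CD49f-high, 18.1 ± 1.62 FPKM in CD49f-low and 15.2 ± 1.56 FPKM in CD49f-neg (SD, n = 3). The dicarboxylate carrier Slc25a10 had 8.38, 4.89 and 3.98 FPKM in CD49f-high, 2.83, 4.35 and 3.18 FPKM in CD49f-low and 1.18, 2.56 and 1.93 FPKM in CD49f-neg. Its difference of 1.20 (adjusted p = 0.00857) in CD49f-high against CD49f-neg was 0.93 (adjusted p = 0.0208) without CD49f-high replicate 1. The row of the oxoglutarate carrier Slc25a11 also covers Pfn1, so its difference of 0.51 (adjusted p = 0.00423) in the same contrast is uncertain as to the gene.

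Fatty acid carriers of the Slc27 family, which also activate fatty acids as acyl-CoA, held 1 call in each direction in CD49f-high against CD49f-neg, among 4 members, where 13.9% of all rows were called higher and 8.27% lower. Slc27a6 (row MERGE.21925, chromosome 18, 58556257 to 58612773) had 2.02, 2.89 and 3.28 FPKM in CD49f-high, 4.18, 4.09 and 4.29 FPKM in CD49f-low and 13.4, 17.8 and 17.9 FPKM in CD49f-neg. It was the only member called lower in both CD49f-positive gates without the block or rescaling, where 9 members were with the block, 11 with median-of-ratios scaling and 12 with quantile normalization, Slc27a6 among them each time. Slc27a6 fell by 2.22 log2 units in CD49f-high (SE 0.16, limma adjusted p = 1.32e-05) and by 1.73 in CD49f-low (adjusted p = 0.000102). Slc27a1, known from fat and muscle, ran the other way, at 17.2, 6.18 and 7.28 FPKM in CD49f-high, 4.19, 4.56 and 5.16 FPKM in CD49f-low and 1.52, 2.55 and 1.8 FPKM in CD49f-neg. It was higher in CD49f-high than CD49f-neg by 1.81 log2 units (SE 0.30, limma adjusted p = 0.00224). Without CD49f-high replicate 1, the library with adipocyte markers, the difference was 1.40 (adjusted p = 0.000599), and CD49f-low against CD49f-neg, at 0.94 with an adjusted p of 0.0656, was called (adjusted p = 0.00399).

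Slc27a3 was lower in CD49f-high than in CD49f-low by the test (-1.30, SE 0.34, limma adjusted p = 0.0305), at 2.39, 6.28 and 6.19 FPKM in CD49f-high, 8.01, 15.1 and 17.1 FPKM in CD49f-low and 5.81, 9.05 and 6.05 FPKM in CD49f-neg. CD49f-high replicate 1 was its lowest library. The call ended without CD49f-high replicate 1 (0.0651), CD49f-low replicate 2 or 3 (0.0965 and 0.114), and with median-of-ratios scaling (0.0589). Slc27a4, the widely expressed member of the family, was called in no contrast, with or without the block, at 5.19, 6.87 and 5.57 FPKM in CD49f-high, 5.65, 6.74 and 6.57 FPKM in CD49f-low and 5.67, 8.25 and 6.82 FPKM in CD49f-neg.

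Carriers of calcium, chloride, phosphate and sulfate held calls in both directions in CD49f-high, with 4 of 14 higher and 3 lower against CD49f-neg (28.6% and 21.4%, beside 13.9% and 8.27% of all rows) and 3 higher and 3 lower against CD49f-low (21.4% each, beside 5.93% and 10.5%). Slc8a2, which the rule made differ, is among the higher ones. Sodium-calcium exchangers use the sodium gradient to take calcium out of the cell. Slc8a1, the exchanger of heart and smooth muscle (row MERGE.20686, chromosome 17, 81388691 to 81649607), had 6.41, 3.9 and 5.37 FPKM in CD49f-high, 1.21, 1.32 and 1.8 FPKM in CD49f-low and 2.07, 2.28 and 2.49 FPKM in CD49f-neg. CD49f-high was above both other gates, by 0.91 log2 units (SE 0.17, limma adjusted p = 0.00355) against CD49f-neg and 1.34 (adjusted p = 0.00058) against CD49f-low. Slc8a3, its relative of muscle and nerve, went the other way, at 0.641, 0.621 and 0.34 FPKM in CD49f-high, 1.37, 1.72 and 1.91 FPKM in CD49f-low and 1.21, 1.58 and 1.65 FPKM in CD49f-neg. It fell in CD49f-high by 0.69 log2 units against CD49f-neg (SE 0.14, limma adjusted p = 0.0061) and by 0.80 against CD49f-low (adjusted p = 0.00411). The pericyte and smooth muscle markers given above were highest in the gate where Slc8a1 was.

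Slc26a7, a chloride and bicarbonate exchanger (row MERGE.31009, chromosome 4, 14502430 to 14621805), separated the 3 gates, at 1.08, 0.78 and 0.69 FPKM in CD49f-high, 6.17, 5.21 and 6.95 FPKM in CD49f-low and 2.56, 3.02 and 4.09 FPKM in CD49f-neg. It fell in CD49f-high by 1.94 log2 units against CD49f-low (SE 0.16, limma adjusted p = 7.21e-05) and by 1.18 against CD49f-neg (adjusted p = 0.00068). Between CD49f-low and CD49f-neg the difference of 0.76 (adjusted p = 0.0135) was not called without CD49f-low replicate 3 (0.0609) or with median-of-ratios scaling (0.0892). The potassium-dependent sodium-calcium exchanger Slc24a4 had 0.261, 0.338 and 0.232 FPKM in CD49f-high, 2.56, 2.94 and 3.39 FPKM in CD49f-low and 0.516, 0.927 and 1.17 FPKM in CD49f-neg, and was lower in CD49f-high than in CD49f-low by the test (-1.63, adjusted p = 0.000135) and higher in CD49f-low than in CD49f-neg (1.09, adjusted p = 0.00153). The potassium-chloride cotransporter Slc12a7 was one of 2 members called at each step from CD49f-neg through CD49f-low to CD49f-high (1 with either rescaling and 5 with the block). It had 4.87, 4.1 and 4.27 FPKM in CD49f-high, 2.81, 2.88 and 3.02 FPKM in CD49f-low and 0.988, 1.34 and 0.927 FPKM in CD49f-neg. The step from CD49f-low to CD49f-high (0.47, adjusted p = 0.0236) ended without CD49f-high replicate 1 or 3 (0.0641 and 0.0591) and without CD49f-low replicates 1, 2 or 3 (0.0737, 0.0718 and 0.0656).

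The chloride importer Slc12a2, which works against Slc12a7, was at 9.63, 4.67 and 7.44 FPKM in CD49f-high, 4.89, 2.67 and 2.76 FPKM in CD49f-low and 5.26, 2.79 and 3.0 FPKM in CD49f-neg. It was not called without the block (adjusted p = 0.0725 in CD49f-high against CD49f-neg and 0.0653 against CD49f-low), and with it was called higher in both (0.00203 and 0.0021). The second contrast was also called with median-of-ratios scaling (0.041) and quantile normalization (0.0493), and each was called in some omissions of 1 library (0.0298 to 0.0467). The phosphate carrier Slc20a1 was called in no contrast, with or without the block, at 5.24, 8.16 and 6.81 FPKM in CD49f-high, 8.2, 10.2 and 8.62 FPKM in CD49f-low and 7.5, 7.49 and 6.2 FPKM in CD49f-neg. Among the 9 bicarbonate and proton exchangers, 2 were called higher and 1 lower in CD49f-high than in CD49f-neg, and none in the other contrasts by limma (2 in CD49f-low against CD49f-neg and 3 in CD49f-high against CD49f-low at an unadjusted p under 0.05). The shares in the first contrast were 22.2% and 11.1%, beside 13.9% and 8.27% of all rows. With the block, 1 was called in each direction in CD49f-low against CD49f-neg, and 2 higher and 1 lower in CD49f-high against CD49f-low. The bicarbonate importer Slc4a7 differed by 0.65 (adjusted p = 0.0437), the proton exchanger Slc9a5 by 0.67 (0.0219) and the endosomal exchanger Slc9a9 by -0.57 (0.0371). None of these calls held in every omission. Slc4a7 ended without each single library other than CD49f-neg replicate 1 and CD49f-low replicate 1 (0.0525 to 0.154). Slc9a5 ended without CD49f-high replicate 2 or 3 or CD49f-neg replicate 1 or 3 (0.0611 to 0.076), and Slc9a9 without each library other than CD49f-low replicate 2 and CD49f-neg replicate 1 (0.0517 to 0.136). The most abundant exchanger, Slc4a2, was at 6.53 ± 0.832 FPKM in CD49f-high, 6.98 ± 0.707 FPKM in CD49f-low and 6.6 ± 0.864 FPKM in CD49f-neg (SD, n = 3) and was called nowhere.

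Most metal carriers were called in no contrast without the block. Of 24, 3 were called higher, Slc11a1 among them, and 3 lower in CD49f-high than in CD49f-neg (12.5% each, beside 13.9% and 8.27% of all rows). In CD49f-low against CD49f-neg, 1 was called higher (4.17%, beside 12.8%) and 0 lower (beside 2.62%). In CD49f-high against CD49f-low, 2 were called higher, Slc11a1 among them, and 1 lower (8.33% and 4.17%, beside 5.93% and 10.5%). With the block, 7 were called higher and 6 lower in CD49f-high than in CD49f-neg, beside 4037 and 2371 of all 20523 rows. In CD49f-low against CD49f-neg, 1 was called higher and 4 lower with it, beside 4916 and 890 rows. The zinc importer Slc39a1 was the most abundant, at 44.9, 43.7 and 39.8 FPKM in CD49f-high, 33.3, 35.9 and 34.1 FPKM in CD49f-low and 37.5, 36.7 and 31.1 FPKM in CD49f-neg. It was called in no contrast without the block, and with it was called higher in CD49f-high than CD49f-neg (adjusted p = 0.0469, beside 0.0925) and than CD49f-low (0.0412, beside 0.0854). Against CD49f-low, Slc39a1 was also called with median-of-ratios scaling (0.00612) and quantile normalization (0.031). Lower in CD49f-high than in CD49f-neg were Slc39a13, a zinc carrier of the secretory path that connective tissue needs (-0.72, adjusted p = 0.0171), Slc30a4, which loads zinc into vesicles (-0.69, 0.00436), and the row of Slc39a7, which also covers H2-Ke6 and is uncertain (-0.74, 0.00345). Slc39a13 had 3.89, 6.55 and 6.44 FPKM in CD49f-high, 6.02, 6.56 and 6.87 FPKM in CD49f-low and 8.29, 11.1 and 9.78 FPKM in CD49f-neg, and its call ended without CD49f-neg replicate 2 or 3 (0.0666 and 0.0554). Slc39a13, Slc30a4 and Slc39a7 were not called in CD49f-low against CD49f-neg without the block or rescaling. They were called lower there with the block (limma adjusted p = 0.0193, 0.0296 and 0.0359 in this order). The same held with median-of-ratios scaling (0.0257, 0.0145 and 0.00792) and quantile normalization (0.033, 0.0313 and 0.0256). The fibroblast markers given above were also lower in CD49f-high than in CD49f-neg, and their part was not tested.

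The magnesium carrier Slc41a1 had 10.03, 9.08 and 8.42 FPKM in CD49f-high, 7.11, 7.62 and 7.88 FPKM in CD49f-low and 5.51, 5.43 and 4.98 FPKM in CD49f-neg, and was higher in CD49f-high than CD49f-neg by 0.69 log2 units (SE 0.10, limma adjusted p = 0.00107). Its call in CD49f-low against CD49f-neg (0.44, adjusted p = 0.0206) ended without CD49f-low replicate 2 or 3 (0.0737 and 0.0838), CD49f-neg replicate 3 (0.0818) and with median-of-ratios scaling (0.26). Slc11a1, known from the phagosomes of macrophages, passed the filter through CD49f-high alone and stood at 0.106, 0.217 and 0.371 FPKM in CD49f-low and at 0.0368, 0.0329 and 0.00243 FPKM in CD49f-neg. Of 8 macrophage and other immune cell markers, 7 were under 1 FPKM in every library, Ptprc and Csf1r among them, and the list summed to 2.62 to 3.83 FPKM in CD49f-high, 3.30 to 4.504 FPKM in CD49f-low and 1.88 to 2.78 FPKM in CD49f-neg. Relative to CD49f-low, the magnesium carrier Slc41a3 was higher in CD49f-high by 0.80 log2 units (SE 0.18, limma adjusted p = 0.0141), which ended without CD49f-high replicate 3 (0.0563). The zinc exporter Slc30a1 was higher in CD49f-high than CD49f-neg (0.57, adjusted p = 0.0309), which ended without CD49f-high replicate 2 or 3 (0.099 and 0.0753) or CD49f-neg replicate 3 (0.111). Among 17 tested symbols of other iron, zinc and copper genes, 6 were called higher in CD49f-high than CD49f-neg (beside 13.9% of all rows) and none lower. The zinc-binding metallothioneins Mt1 and Mt2 share 1 row of them, at 131, 130.2 and 169 FPKM in CD49f-high, 53.3, 102 and 75.2 FPKM in CD49f-low and 25.9, 30.4 and 12.5 FPKM in CD49f-neg.

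Carriers of vitamins, choline and haem were called higher for 1 of 8 (12.5%) and lower for 1 in CD49f-high against each other gate, beside 13.9% and 8.27% of all rows against CD49f-neg and 5.93% and 10.5% against CD49f-low. Slc44a2, a choline carrier-like protein (row MERGE.46310, chromosome 9, 21337828 to 21355025), had 28, 24.6 and 28.8 FPKM in CD49f-high, 13.4, 13.4 and 16 FPKM in CD49f-low and 7.63, 11.5 and 9.57 FPKM in CD49f-neg. Each CD49f-high library was above each CD49f-low library, and each of these above each CD49f-neg library. The differences were 1.42 log2 units (SE 0.15, limma adjusted p = 0.000128) in CD49f-high against CD49f-neg, 0.88 (adjusted p = 0.00315) in CD49f-high against CD49f-low and 0.54 (adjusted p = 0.0377) in CD49f-low against CD49f-neg. The last call ended with median-of-ratios scaling (0.299), without CD49f-low replicates 1, 2 or 3 (0.0687, 0.081 and 0.13) and without CD49f-neg replicate 1 or 3 (0.0809 and 0.0992). Its relative Slc44a1 was called in no contrast, at 5.85, 9.52 and 9.43 FPKM in CD49f-high, 7.79, 9.06 and 9.01 FPKM in CD49f-low and 8.92, 10.4 and 8.95 FPKM in CD49f-neg. Slc48a1, which takes haem out of lysosomes (row MERGE.16522, chromosome 15, 97784355 to 97792692), ran against Slc44a2, at 4.67, 5.06 and 3.66 FPKM in CD49f-high, 10.5, 9.81 and 10.7 FPKM in CD49f-low and 12.3, 15.4 and 14.7 FPKM in CD49f-neg. The 3 gates did not overlap. It fell in CD49f-high by 1.47 log2 units against CD49f-neg (SE 0.13, limma adjusted p = 4.99e-05) and by 1.06 against CD49f-low (adjusted p = 0.000541), and the difference between CD49f-low and CD49f-neg, -0.41, was not called without the block (adjusted p = 0.0622) and was with it (0.0478), with median-of-ratios scaling (0.00717) and with quantile normalization (0.015).

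Among 4 carriers of neurotransmitters and osmolytes, the taurine carrier Slc6a6 and the glycine carrier Slc6a9 differed in opposite ways. Slc6a6 had 2.82, 3.92 and 2.85 FPKM in CD49f-high, 5.8, 6.77 and 7.21 FPKM in CD49f-low and 2.77, 3.07 and 3.14 FPKM in CD49f-neg. CD49f-low was highest, by 0.92 log2 units (SE 0.13, limma adjusted p = 0.00173) against CD49f-neg, and CD49f-high against CD49f-low was at -0.86 (adjusted p = 0.00199). Slc6a9 had 7.93, 5.22 and 5.63 FPKM in CD49f-high, 1.68, 1.95 and 2.38 FPKM in CD49f-low and 2.71, 4.34 and 3.79 FPKM in CD49f-neg. Relative to CD49f-low, it was higher in CD49f-high by 1.26 log2 units (SE 0.18, limma adjusted p = 0.00146). Against CD49f-neg, its call (0.65, adjusted p = 0.0302) ended without CD49f-high replicate 1 or 3 (0.0903 and 0.0504) and without CD49f-neg replicate 1 or 3 (0.0798 and 0.0678). The creatine carrier Slc6a8 was at 4.19, 5.94 and 6.45 FPKM in CD49f-high, 5.69, 7.71 and 7.8 FPKM in CD49f-low and 5.08, 6.48 and 6.31 FPKM in CD49f-neg. It was called only with the block, in CD49f-high against CD49f-low (-0.31, adjusted p = 0.0339, beside 0.25).

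Nucleoside, nucleobase and nucleotide sugar carriers were nearly all uncalled, with 1 of 10 higher and 1 lower in CD49f-high than in CD49f-neg and none in the other contrasts by limma (1 in CD49f-low against CD49f-neg and 0 in CD49f-high against CD49f-low at an unadjusted p under 0.05). All rows were called at 13.9% and 8.27% in the first contrast. With the block, 2 were called in each direction in CD49f-high against CD49f-neg, and Slc43a3 was called higher in the other contrasts (adjusted p = 0.0305 in CD49f-high against CD49f-low and 0.0165 in CD49f-low against CD49f-neg). Slc43a3, a purine nucleobase carrier, had 8.1, 9.4 and 5.97 FPKM in CD49f-high, 5.53, 5.95 and 4.06 FPKM in CD49f-low and 4.43, 3.0 and 1.97 FPKM in CD49f-neg, a difference of 1.12 log2 units (SE 0.23, limma adjusted p = 0.00747). The lysosomal nucleoside carrier Slc29a3 was lower (-0.55, adjusted p = 0.0342), which ended without CD49f-high replicate 1 or 3 (0.0965 and 0.0613), CD49f-low replicate 2 (0.0538) or CD49f-neg replicate 2 or 3 (0.115 and 0.0926). Slc35a4 was uneven within gates, at 6.13, 5.08 and 11.3 FPKM in CD49f-high, 6.21, 5.69 and 7.41 FPKM in CD49f-low and 6.13, 14.6 and 5.73 FPKM in CD49f-neg.

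Of the 10 carriers of organic anions and cations, Slc22a23 had the largest difference. It stood at 1.8, 4.22 and 4.75 FPKM in CD49f-high, 1.21, 1.05 and 1.12 FPKM in CD49f-low and 0.355, 0.34 and 0.322 FPKM in CD49f-neg. Here CD49f-high replicate 1 was the lowest of its gate, as it was for the Schwann cell markers. Slc22a23 was higher in CD49f-high than CD49f-neg by 1.71 log2 units (SE 0.24, limma adjusted p = 0.000702) and than in CD49f-low by 1.04 (adjusted p = 0.0146), and without replicate 1 by 2.03 (adjusted p = 1.60e-05) and 1.37 (adjusted p = 0.00021). The call against CD49f-low ended without CD49f-high replicate 2 or 3 (0.0519 and 0.0518). Slc22a15 was lower in CD49f-high than in CD49f-neg (-0.50, adjusted p = 0.0109). Slc22a17, a receptor for the iron-binding protein lipocalin, was the most abundant of the class, at 5.43, 10.9 and 15.2 FPKM in CD49f-high, 10.6, 14.2 and 19.8 FPKM in CD49f-low and 11.7, 17.7 and 19.4 FPKM in CD49f-neg. In each gate replicate 1 was its lowest library. It was called in no contrast without the block, at -0.66 (adjusted p = 0.214) in CD49f-high against CD49f-neg and -0.52 (0.335) against CD49f-low, and with it was called lower in both (0.00911 and 0.0287). Without CD49f-high replicate 1 and without the block, the differences were -0.28 (adjusted p = 0.56) and -0.15 (adjusted p = 0.754).

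Among the 6 members that are no carriers, both scaffold proteins of the proton exchanger Slc9a3 were called higher in CD49f-high than CD49f-low. Slc9a3r1 had 7.41, 9.62 and 11.3 FPKM in CD49f-high, 5.26, 5.54 and 4.03 FPKM in CD49f-low and 3.64, 3.71 and 3.32 FPKM in CD49f-neg, a difference of 1.18 log2 units (SE 0.16, limma adjusted p = 0.000583) against CD49f-neg and of 0.81 (adjusted p = 0.00719) against CD49f-low. Slc9a3r2 had 10.8, 11.6 and 15.2 FPKM in CD49f-high, 6.05, 7.66 and 7.75 FPKM in CD49f-low and 7.45, 8.68 and 9.86 FPKM in CD49f-neg, and was called against CD49f-low (0.72, adjusted p = 0.0117). Against CD49f-neg its difference of 0.48 was not called without the block (adjusted p = 0.0546) and was with it (0.00635). Slc9a3 itself is no member.

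**Figure D4:**
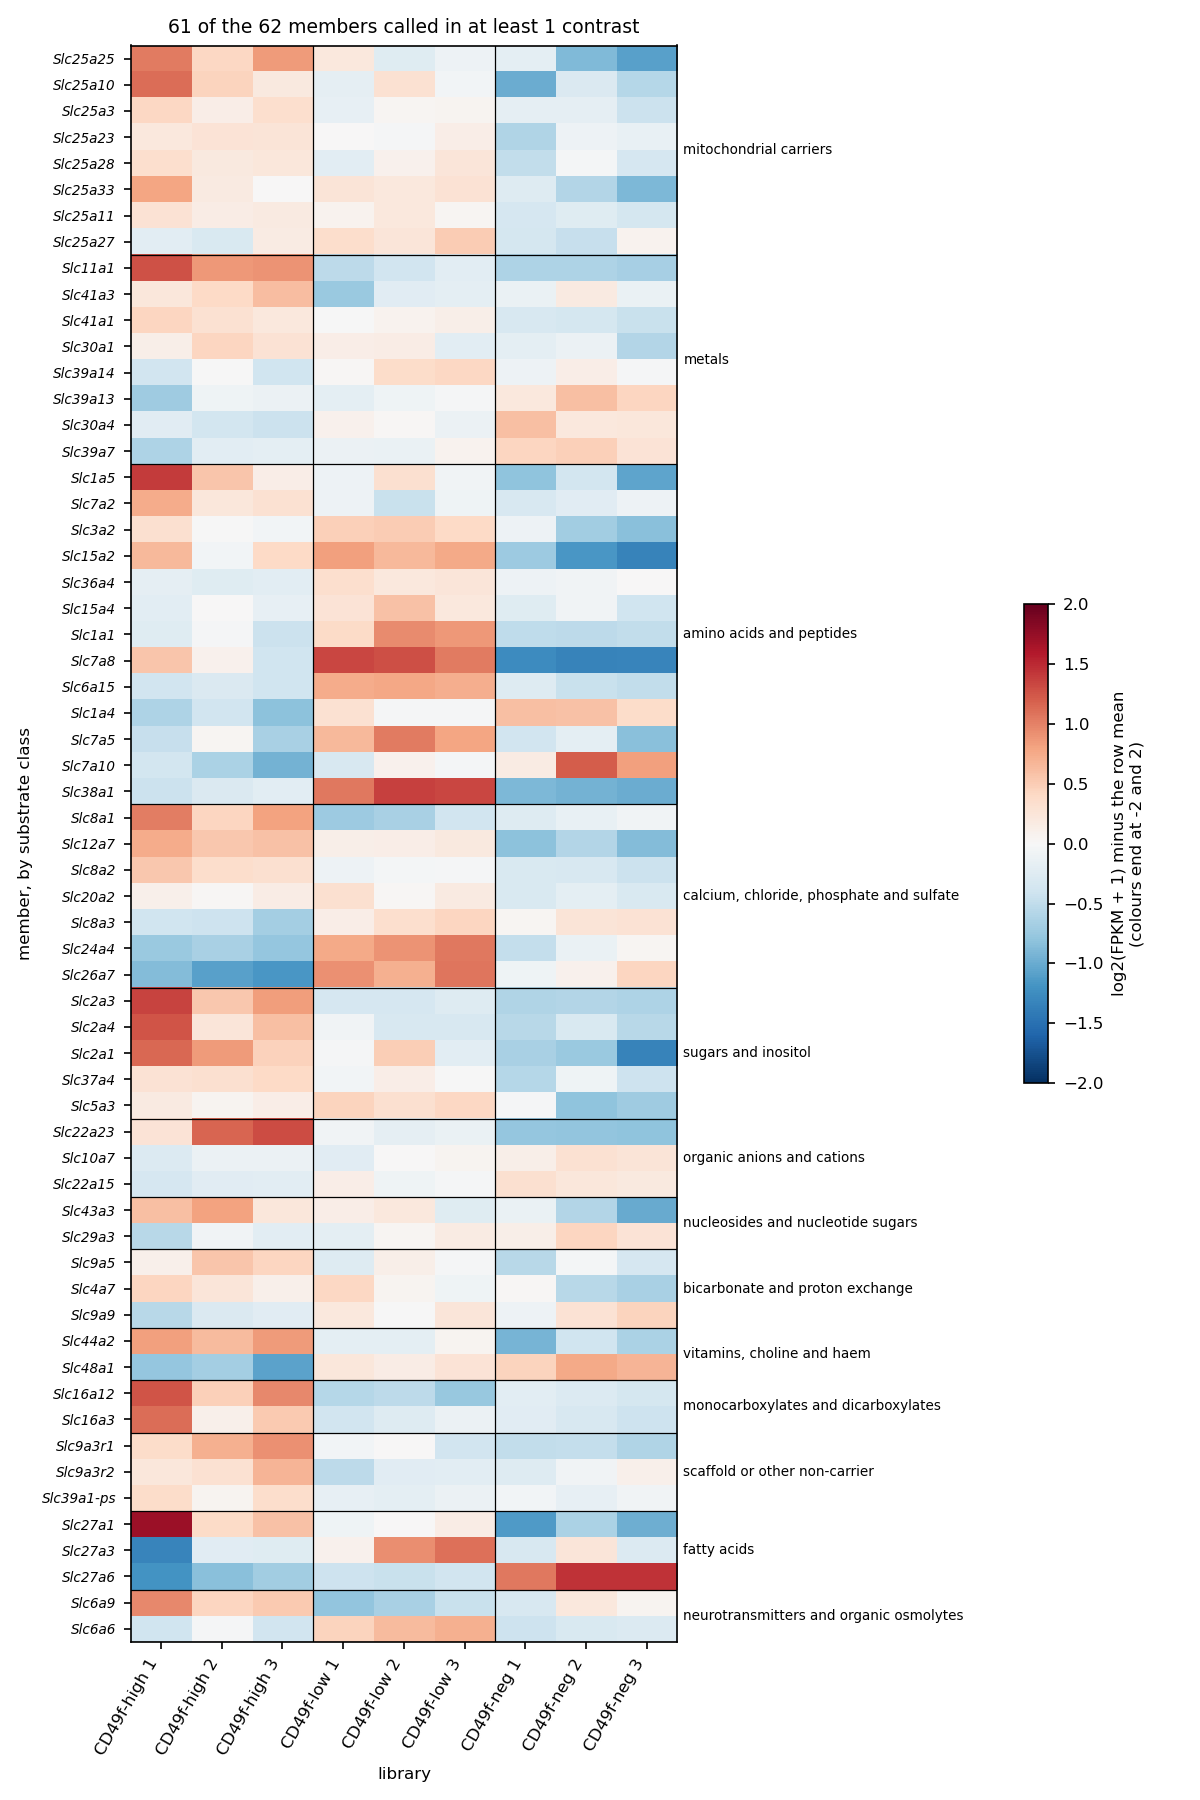
Level of 61 of the 62 members called in at least 1 contrast (rows, by substrate class) in each library (columns, CD49f-high, CD49f-low and CD49f-neg), as log2(FPKM + 1) minus the mean of the row (colour, red above and blue below). Most called sugar carriers are red in CD49f-high, many amino acid carriers are red in CD49f-low, and CD49f-high replicate 1 is the deepest red for Slc27a1, Slc1a5 and Slc2a4.

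Summed by class, the mean level of amino acid carriers was 152.5 ± 21.8 FPKM in CD49f-high, 191 ± 7.47 FPKM in CD49f-low and 139 ± 18.8 FPKM in CD49f-neg (SD, n = 3 each). The 3 CD49f-low libraries, 195.8, 195.0 and 182.5 FPKM, lay above all others, of which CD49f-high replicate 1 came nearest at 176 FPKM. Sugar and inositol carriers summed to 69.7 ± 1.13 FPKM in CD49f-high, 62.9 ± 4.07 FPKM in CD49f-low and 48.7 ± 3.64 FPKM in CD49f-neg, with no overlap between the gates. Mitochondrial carriers summed to 283 ± 38.9 FPKM, 269 ± 8.70 FPKM and 217 ± 13.3 FPKM in the same order, and both CD49f-positive gates lay above CD49f-neg. Metal carriers overlapped in all gates, at 150.4 ± 5.64 FPKM, 147 ± 4.60 FPKM and 155.5 ± 9.74 FPKM. These sums follow the scaling of the libraries and their most abundant members and were not tested.

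**Figure D5:**
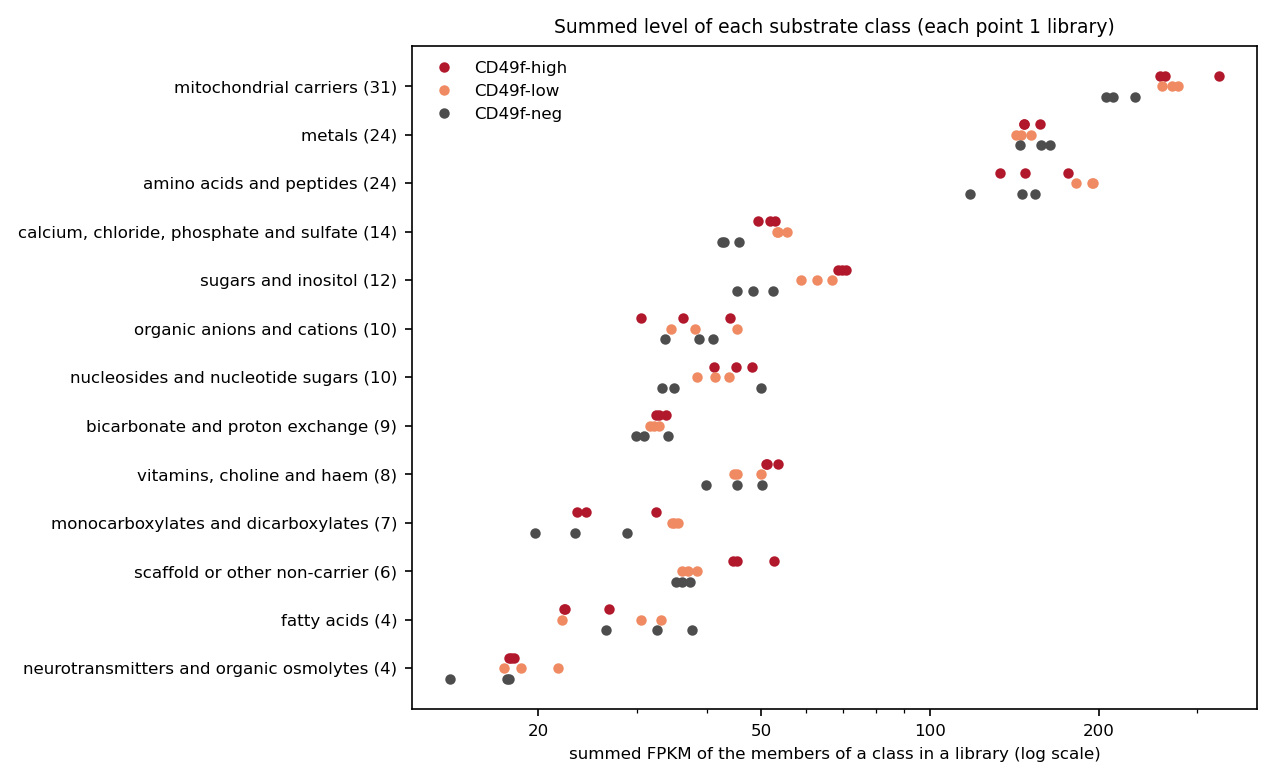
Summed FPKM of the members of each substrate class (x axis, log scale) in each library (points, coloured by gate). Classes run down the y axis with their number of members in brackets. The CD49f-low points are highest for amino acid carriers, at 182.5 to 195.8 FPKM, and the CD49f-high points for sugar carriers, at 68.6 to 70.9 FPKM.

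Sodium-coupled carriers run on the gradient made by the sodium pump. Of 9 tested pump subunits and carrier partners, 5 were called higher and 1 lower in CD49f-high than in CD49f-neg (beside 13.9% and 8.27% of all rows), 2 higher and 0 lower in CD49f-low than in CD49f-neg (beside 12.8% and 2.62%), and 5 higher and 2 lower in CD49f-high than in CD49f-low (beside 5.93% and 10.5%). Fxyd6, a small regulator of the pump, differed by -1.03 in CD49f-high against CD49f-low (adjusted p = 0.00513). Atp1b2, a subunit chosen after its values were seen, was highest in CD49f-high. Atp1b2 had 22.7, 15.7 and 11.7 FPKM in CD49f-high, 1.59, 1.73 and 2.71 FPKM in CD49f-low and 0.659, 1.03 and 0.597 FPKM in CD49f-neg, and was higher than in CD49f-neg by 3.29 log2 units (SE 0.23, limma adjusted p = 1.32e-05). The pericyte and smooth muscle markers were highest in the same libraries, and their part was not tested.

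In other transporter families, 20 solute carriers outside the A subfamilies were tested, of which 4 were called higher in CD49f-high (beside 13.9% of all rows) and 5 in CD49f-low (beside 12.8%) than in CD49f-neg, none lower. Their most abundant members, Slc35b1, Slco3a1 and Slc35e1, were not called against CD49f-neg, with or without the block. ABC transporters, which pump with ATP, were tested under 24 symbols, with 6 called higher and 3 lower in CD49f-high than in CD49f-neg (beside 13.9% and 8.27% of all rows), 2 higher and 3 lower in CD49f-low than in CD49f-neg (beside 12.8% and 2.62%), and 3 higher and 2 lower in CD49f-high than in CD49f-low (beside 5.93% and 10.5%). The 3 called lower in CD49f-low than in CD49f-neg, Abca8a, Abca8b and Abca9, share 1 row. Among 11 tested genes of the amino acid response, which raises several Slc7 and Slc38 genes when amino acids run short, 4 were called higher in CD49f-high than CD49f-neg (beside 13.9% of all rows) and 1 in CD49f-low than in CD49f-neg (beside 12.8%, and 4 with the block). Its central factor Atf4 was called in no contrast, with or without the block, at 96.3, 102 and 79.2 FPKM in CD49f-high, 121, 115 and 95.9 FPKM in CD49f-low and 121, 94.6 and 71.3 FPKM in CD49f-neg.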

How the data were processed

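RNA of 9 libraries, 3 for each CD49f gate, was made with a kit that the labels name as NEBNext Ultra. FastQC, TopHat2, StringTie and the build GRCm38 are listed in the submitters' processing notes, with no role or order. The values deposited by the authors are FPKM per gene row, already divided by length and depth, so count models were not used. Some merged rows cover several genes, and whether counting used strand is not given in the sources used here. Of these FPKM values, rows with at least 1 FPKM in at least 3 libraries were kept. Differences in log2(FPKM + 1) were fitted with limma 3.58.1 (R 4.3.3) on group means of all 9 libraries, with a trended prior and Benjamini-Hochberg adjustment over all rows kept. Sums and figures were made in Python 3.11.15 (pandas 2.3.3, numpy 2.4.6, matplotlib 3.10.9). The fit was tested on simulated data.

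Alternatives tried were no filter, a pseudocount of 0.1, a filter at 5 FPKM, no trend, median-of-ratios scaling, quantile normalization, a fit of only the 6 libraries compared, the replicate number as a block and the omission of each library. Deviations of libraries with the same number in different gates correlated at 0.252 to 0.520 (9 pairs across rows), against -0.453 to 0.118 for different numbers (18 pairs). The numbers were therefore taken to pair libraries, although the labels do not say what they stand for. Calls, SEs and p-values in the text come from the fit without the block, and the blocked value is given where it changes a stated call. The omissions of 1 library and the rescaled fits also left out the block. A call said to end in one of them therefore ended in a fit that ignored this pairing. With the block and all 9 libraries, every member call was kept. The depth sets the precision of low values, and no counts were used.

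Members, classes and lists were chosen with earlier results of these data known. Genes named were, per contrast, up to 6 called members at either end of the differences, among those without overlap and with at least 3 FPKM in the higher gate. Added per class were the 3 most abundant members and up to 3 with the smallest adjusted p, and per other list the 3 most abundant genes. Any other gene named, such as further called members of a class, relatives of a named member and members at the edge of the rule, was chosen after its values were seen. A few genes that these counts include are not reported here by name.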

Additional observations from a re-analysis of the deposited data

How the results depend on the processing

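Counts of called members depended on scaling and filter, and so did counts over all rows. In CD49f-low against CD49f-neg, 2623 of all rows were called higher in the fit reported. This became 1117 with median-of-ratios scaling, 1040 with quantile normalization and 4916 with the replicate block. Of CD49f-low against CD49f-neg, the 21 higher calls became 13 with no filter, 11 with median-of-ratios scaling, 12 with quantile normalization and 36 with the replicate block. The 1 lower call became 2 with a pseudocount of 0.1 and with the stricter filter, 18 with median-of-ratios scaling, 15 with quantile normalization, 10 with the replicate block and 5 with only the 6 libraries compared. Of CD49f-high against CD49f-neg, the 36 higher calls became 18 with the stricter filter, and the 14 lower calls 9 with no filter, 8 with the stricter filter, 22 with quantile normalization and 23 with the replicate block. Of CD49f-high against CD49f-low, the 16 higher calls became 5 with the stricter filter and 25 with median-of-ratios scaling, and the 16 lower calls 30 with the replicate block. The stricter filter keeps fewer members, and for the other settings the cause was not tested. Leaving out each library gave 14 to 26 higher and 1 to 4 lower calls in CD49f-low against CD49f-neg, 25 to 35 and 9 to 15 in CD49f-high against CD49f-neg, and 10 to 19 and 13 to 17 in CD49f-high against CD49f-low.

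Of the called results of named members, 11 of 17, 27 of 39 and 18 of 24 kept their call in every setting that tested them (CD49f-low against CD49f-neg, CD49f-high against CD49f-neg, CD49f-high against CD49f-low), and none turned its sign. The filter at 5 FPKM left some members untested, Slc38a1 among them, and these counts do not treat that as a lost call. Over all members, 13 of the 21 higher calls in CD49f-low against CD49f-neg were tested and kept with that filter. A further 47 results of named members, not called in the fit reported, were called in at least 1 setting, of which 30 with the replicate block, 18 with median-of-ratios scaling and 17 with quantile normalization. Another 77 were called in no setting. Of these, 41 changed sign in at least 1 setting, where the difference was at most 0.265 log2 units. Members under 2 FPKM rest on few fragments, and their differences are limited by depth.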
